A study of Mus musculus with 9 samples.

Results

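The genes described here make up 31 listed members of homologous recombination, the Fanconi pathway, the DNA damage checkpoint and mismatch repair, measured on microarrays of mouse colon organoids. They are listed by function: a probe belonged to the set when the RefSeq accession in its annotation maps to 1 of the listed symbols. Of the 31 genes, 30 had such a probe and were analysed, out of 14034 genes tested and 20660 named on the array. Rad51c had no matched probe and was not analysed here. All 30 passed the filter on dim probes, and each is represented by its brightest kept probe. RNA came from colon organoids, epithelial structures grown in culture from colon, in 3 groups of 3 arrays: 0 weeks, 12 weeks and 60 weeks under reagents whose names the labels do not give beyond calling them inflammatory. The labels give no strain, age, sex or genotype, and do not say whether the replicates were separate animals or cultures, so the p-values below measure only the spread between these samples. No untreated culture of 12 or 60 weeks was among the samples, so treatment and time in culture cannot be told apart.

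Homologous recombination repairs double-strand breaks by copying an intact sister chromatid: the break is sensed and its ends are resected, BRCA proteins prepare the single strand, and further factors help it invade the sister. The Fanconi pathway recognises crosslinks between the DNA strands that stall replication forks and hands the incised DNA on to recombination. Mismatch repair removes the errors that polymerases leave behind, and the checkpoint kinases hold the cell cycle while repair goes on. Many of these genes are transcribed as cells enter S phase, and loss of mismatch repair is a known route to colon cancer.

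Promoter sequences are shown for 5 members, because their levels carry the patterns described below: Fancm, Brip1 and Rad54l stood highest at 12 weeks, and Fanca and Brca1 were lower at 60 weeks. Each is the 120 bases before the RefSeq transcription start of build GRCm38.p6, written 5′ to 3′ on the gene's own strand. Capitals mark CCAAT, the letters bound by NF-Y, on either strand (ATTGG on the other), and a 7-letter E2F core (TTCCCGC or TTCGCGC, also TTGGCGC or TTGCCGC, on either strand).
Fancm, chr12:65075483-65075602, plus strand: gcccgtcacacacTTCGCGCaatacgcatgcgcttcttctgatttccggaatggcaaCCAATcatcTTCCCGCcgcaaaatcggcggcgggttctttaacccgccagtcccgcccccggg
Brip1, chr11:86201194-86201313, minus strand: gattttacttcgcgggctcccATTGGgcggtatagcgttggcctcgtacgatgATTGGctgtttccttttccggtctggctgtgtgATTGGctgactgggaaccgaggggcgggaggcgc
Rad54l, chr4:116123691-116123810, minus strand: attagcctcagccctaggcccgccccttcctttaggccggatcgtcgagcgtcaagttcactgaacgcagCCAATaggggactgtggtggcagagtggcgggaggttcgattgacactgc
Fanca, chr8:123318577-123318696, minus strand: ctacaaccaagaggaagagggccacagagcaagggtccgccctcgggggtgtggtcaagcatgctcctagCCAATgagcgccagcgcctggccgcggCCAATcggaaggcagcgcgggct
Brca1, chr11:101551956-101552075, minus strand: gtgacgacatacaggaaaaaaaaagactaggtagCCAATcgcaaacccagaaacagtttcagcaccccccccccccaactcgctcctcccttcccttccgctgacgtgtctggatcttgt
In the window from 250 bases before to 50 after the start, CCAAT was found for 16 of the 24 members with a promoter in the RefSeq table (66.7%), against 42.8% of all tested genes. It was found for 10 of 15 members called lower at 60 weeks and for 6 of 8 tested members without that call. The E2F core, which was chosen after a search for 8 letters had found little, was found for 15 of 24 members (62.5%) and for 17.8% of tested genes. Its share was 8 of 15 among the members called lower and 6 of 8 among the others. The 8-letter E2F motif (TTTCGCGC or TTTGGCGC, each of which contains a core) was found for 1 of 24 members, Rad51c, which was not analysed, and for 1.65% of tested genes. It was found for 36.0% of 25 replication genes, of which 64.0% held the E2F core and 68.0% CCAAT, shares near those of the members. The CHR motif of cell cycle promoters (TTTGAA or TTCGAA) was found for 12.5% of the members and 16.8% of tested genes. These matches are descriptions of letters, not of binding.

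Signals are given as levels: log2 of the background-subtracted probe signal relative to the 75th percentile of its array, so that 0 is a probe as bright as that percentile. Levels of different genes are not compared, since each probe has its own efficiency. Differences between groups are log2 fold changes ± SE from limma, and a gene was called at a Benjamini-Hochberg adjusted p under 0.05 over all tested genes. In the organoids, the 10 colon epithelium markers examined were well above background on every array, with summed linear signals of 2153 to 2593 at 0 weeks, 2285 to 2437 at 12 weeks and 2238 to 2498 at 60 weeks (in units of each array's 75th percentile). Of 8 fibroblast markers, 2, 1 and 2 were above background on all arrays of the 3 groups, and Pdgfra, Pdgfrb, Dcn, Lum and Thy1 on none. Of 6 leukocyte markers 3 were, with Ptprc and Lyz2 on none and summed signals of 16.7 to 23.4, 24.3 to 47.9 and 27.3 to 34.4. Of 5 endothelial markers 2, 3 and 3 were, with Cdh5 and Tek on none. Their part in the results below was not tested. Replicate 2 of 12 weeks stood apart: it correlated at 0.978 and 0.977 with its replicates across genes, against 0.992 between those, and calls that changed without it are named beside each member. All 0 weeks arrays and replicate 1 of 12 weeks lay in row 1 of 1 slide, replicates 2 and 3 of 12 weeks and 1 and 2 of 60 weeks lay in row 2, and replicate 3 of 60 weeks was alone on a second slide with a scan of its own.

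At 60 weeks most of the repair genes were called lower than at 0 weeks and none was called higher. Against 0 weeks, 19 of 30 were called lower (63.3%) and 0 higher, where 32.8% of all tested genes were called, 16.1% lower and 16.7% higher. The median difference was -0.60 over the members and -0.04 over all tested genes, and 27 of 30 differences lay below 0. On 24 members the 3 arrays of 60 weeks all lay below the 3 of 0 weeks, and on 1, Msh6, all lay above, where 56.4% of all genes separated, 28.9% downward and 27.5% upward. By limma's F test, 22 of 30 members differed among the 3 groups, against a background of 56.7%. In bulk RNA, fewer cells of a type and less RNA per cell cannot be told apart.

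**Figure D1:**
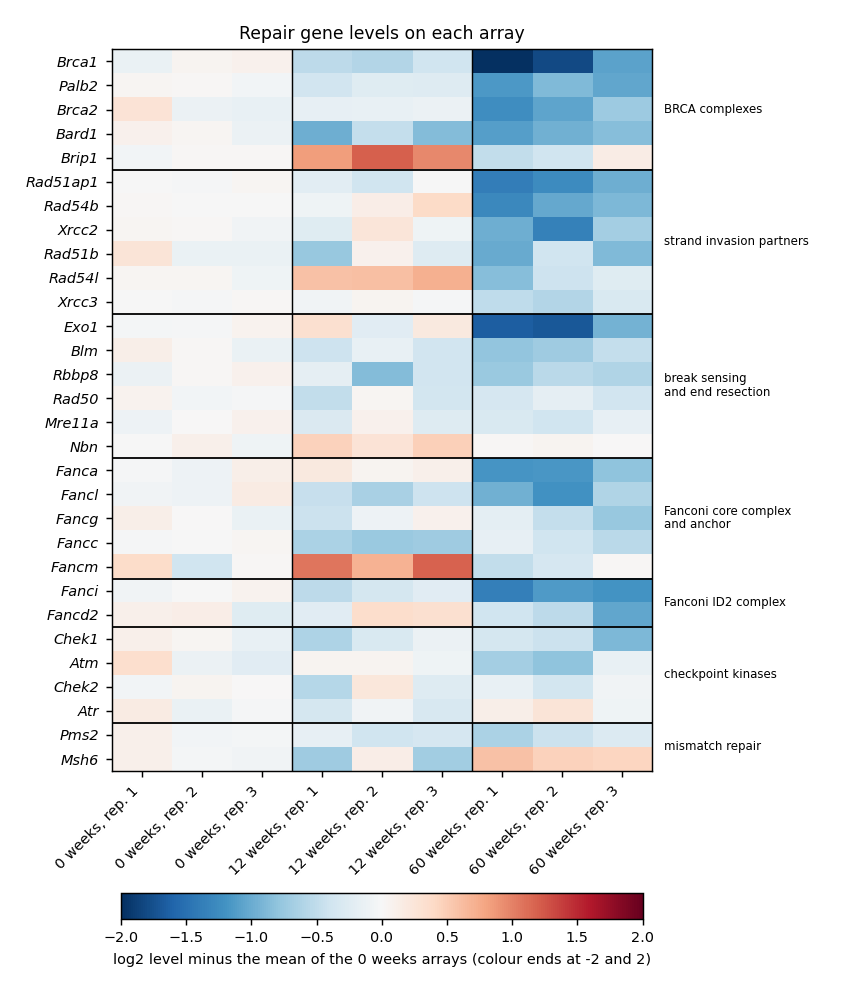
Each cell is the log2 level of 1 of the 30 repair genes (vertical axis, grouped by role) on 1 of the 9 arrays (horizontal axis), minus the gene's mean over the 0 weeks arrays, blue for lower and red for higher; the colour ends at -2 and 2. The 3 columns of 60 weeks are blue for most genes, with Msh6 red on all 3, while at 12 weeks Brip1, Fancm, Rad54l and Nbn are red.

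At 12 weeks the calls were split between both directions. Against 0 weeks, 4 members were called higher and 5 lower, against backgrounds of 19.1% and 22.7%, so the share called among members (30%) was below the 41.8% of all tested genes. Their median difference was -0.20, beside -0.06 over all genes, and 21 of 30 lay below 0. The groups did not overlap for 9 members on the lower side and 4 on the higher, beside 29.7% and 24.9% of all genes (54.5% in all). From 12 to 60 weeks, 15 members were called lower and 2 higher, beside backgrounds of 17.6% and 20.7% (38.3% in all), with a median of -0.45 against 0.02 over all genes. In that comparison 17 members separated downward and 2 upward, beside 21.8% and 25.3% (47.2% in all). The 3 comparisons share arrays pairwise and are not independent of each other.

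The BRCA complexes act on resected DNA, and 4 of their 5 members were called lower at 60 against 0 weeks, with a median of -1.01. Brca2, the tumour suppressor that readies the resected strand for invasion, stood at 1.06, 0.67 and 0.64 at 0 weeks, 0.62, 0.65 and 0.67 at 12 weeks, then -0.45, -0.27 and 0.05 at 60 weeks. Every 60 weeks array lay below the other 6, while 0 and 12 weeks overlapped. The fall was 2.02-fold from 0 weeks (log2 -1.01 ± 0.16, adjusted p = 0.00189) and 1.83-fold from 12 weeks (log2 -0.87 ± 0.16, adjusted p = 0.00404). Palb2, which joins Brca2 to Brca1, was at -2.34, -2.36 and -2.44, then -2.76, -2.62 and -2.63, then -3.54, -3.27 and -3.41. Its 3 groups did not overlap, each lower than the one before. From 0 to 60 weeks it fell 2.03-fold (log2 -1.02 ± 0.10, adjusted p = 0.000149), and from 0 to 12 weeks by 0.29 ± 0.10 (adjusted p = 0.0448), a call that ended in 15 of 23 alternatives, among them those without any 1 of the 0 weeks arrays, replicates 1 or 3 of 12 weeks and replicates 1 or 3 of 60 weeks.

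Bard1, the partner with which Brca1 forms a ubiquitin ligase, was already lower at 12 weeks. It stood at 2.20, 2.15 and 1.99 at 0 weeks, 1.14, 1.64 and 1.25 at 12 weeks, then 1.01, 1.16 and 1.26 at 60 weeks, so the later groups both lay below every 0 weeks array and overlapped each other. It fell 1.71-fold by 12 weeks (log2 -0.77 ± 0.15, adjusted p = 0.00374) and was 1.96-fold lower than at 0 weeks by 60 weeks (log2 -0.97 ± 0.15, adjusted p = 0.00149), with 60 against 12 weeks not called (-0.20 ± 0.15, adjusted p = 0.312). Brca1 itself had a dim probe, at -3.97, -3.78 and -3.75 at 0 weeks and -4.36, -4.42 and -4.24 at 12 weeks, above background on 3 and 2 of 3 arrays. At 60 weeks none of the arrays held it well above background (-6.88, -5.64 and -4.90), so the size of its fall is uncertain. With each dim array set at a floor, Brca1 was 1.96-fold lower at 60 than at 0 weeks and 1.38-fold lower than at 12 weeks. In the limma fit, made without the floor, the adjusted p was 0.00754 and 0.0235. The first of these calls ended with normexp background correction (log2 -0.28, adjusted p = 0.0909), and the second with normexp too (log2 -0.02) and without replicates 1 or 3 of 12 weeks or replicate 2 of 60 weeks. The bound sets each dim array at the lowest signal called well above background on it, or at the probe's own value where higher.

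Brip1, a helicase that binds Brca1 and is also a Fanconi protein, moved the other way at 12 weeks. Its level was -2.93, -2.84 and -2.85 at 0 weeks, -2.04, -1.67 and -1.92 at 12 weeks, then -3.36, -3.27 and -2.73 at 60 weeks. The 12 weeks arrays lay above the other 6, which overlapped. It rose 2-fold at 12 weeks (log2 0.999 ± 0.17, adjusted p = 0.0026) and was 2.37-fold lower at 60 than at 12 weeks (log2 -1.25 ± 0.17, adjusted p = 0.0012), while 60 against 0 weeks was not called (-0.25 ± 0.17, adjusted p = 0.31). Both of its calls held in every alternative run. At 60 against 0 weeks Brip1 was called lower in 3 of 22 alternatives: with the slide block, with array weights and without replicate 3 of 60 weeks.

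The partners of strand invasion were the role in which each tested member was called lower at 60 against 0 weeks, 6 of 6, with a median of -0.88. At 12 weeks 1 of the 6 was called higher and 0 lower (median -0.02), and from 12 to 60 weeks 5 were called lower. Rad51ap1, which stimulates strand exchange, stood at 1.79, 1.78 and 1.84, then 1.60, 1.41 and 1.79, then 0.42, 0.55 and 0.83. The 60 weeks arrays lay below all others, by more than the spread of any group. Rad51ap1 fell 2.3-fold from 0 to 60 weeks (log2 -1.20 ± 0.14, adjusted p = 0.000349) and was not called at 12 weeks (-0.20 ± 0.14, adjusted p = 0.258). Rad54b, a motor protein that helps open the target duplex, was at -0.44, -0.46 and -0.47 at 0 weeks, -0.54, -0.32 and -0.07 at 12 weeks, then -1.75, -1.49 and -1.35 at 60 weeks. Again the 60 weeks arrays stood apart below and the earlier groups overlapped. It fell 2.1-fold (log2 -1.07 ± 0.14, adjusted p = 0.000909) from 0 weeks, a call lost with the deposited value table (log2 -0.67, adjusted p = 0.0698), and 2.33-fold from 12 weeks (adjusted p = 0.000546). Its second probe, well above background on 1 of 3 arrays at 60 weeks, differed by -0.67 between 60 and 0 weeks.

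Rad54l, the other motor of this kind, rose before it fell. Its values were -0.81, -0.80 and -0.92 at 0 weeks, -0.27, -0.24 and -0.13 at 12 weeks, then -1.69, -1.26 and -1.09 at 60 weeks. None of its 3 groups overlapped another: 12 weeks was highest and 60 weeks lowest. Rad54l was 1.55-fold higher at 12 weeks (log2 0.63 ± 0.15, adjusted p = 0.0109) and fell from there 2.19-fold (log2 -1.13 ± 0.15, adjusted p = 0.000964). At 60 weeks it was 1.41-fold lower than at 0 weeks (log2 -0.50 ± 0.15, adjusted p = 0.0347), which no longer held without any 1 of the 0 weeks arrays and without replicates 1 or 2 of 60 weeks. Xrcc2, a subunit of a complex that acts early in strand invasion, stood at -1.21, -1.23 and -1.32, then -1.50, -1.02 and -1.35, then -2.23, -2.61 and -1.93, with 60 weeks below all other arrays. It fell 2-fold from 0 weeks (log2 -1.003 ± 0.18, adjusted p = 0.0042), and its second probe, fainter, differed by -0.44. Xrcc3, which pairs with Rad51c, was at -0.57, -0.59 and -0.54, then -0.64, -0.52 and -0.58, then -1.08, -1.15 and -0.86, a smaller but separate fall of 0.46 ± 0.10 (adjusted p = 0.00827). Rad51b spread more, from -1.23 to -0.83 at 0 weeks, -1.85 to -1.005 at 12 weeks and -2.09 to -1.49 at 60 weeks. Its call at 60 weeks (-0.76 ± 0.24, adjusted p = 0.0426) ended in 10 alternatives, those without any 1 of the 0 weeks arrays, replicate 3 of 12 weeks or replicates 1 or 3 of 60 weeks among them.

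**Figure D2:**
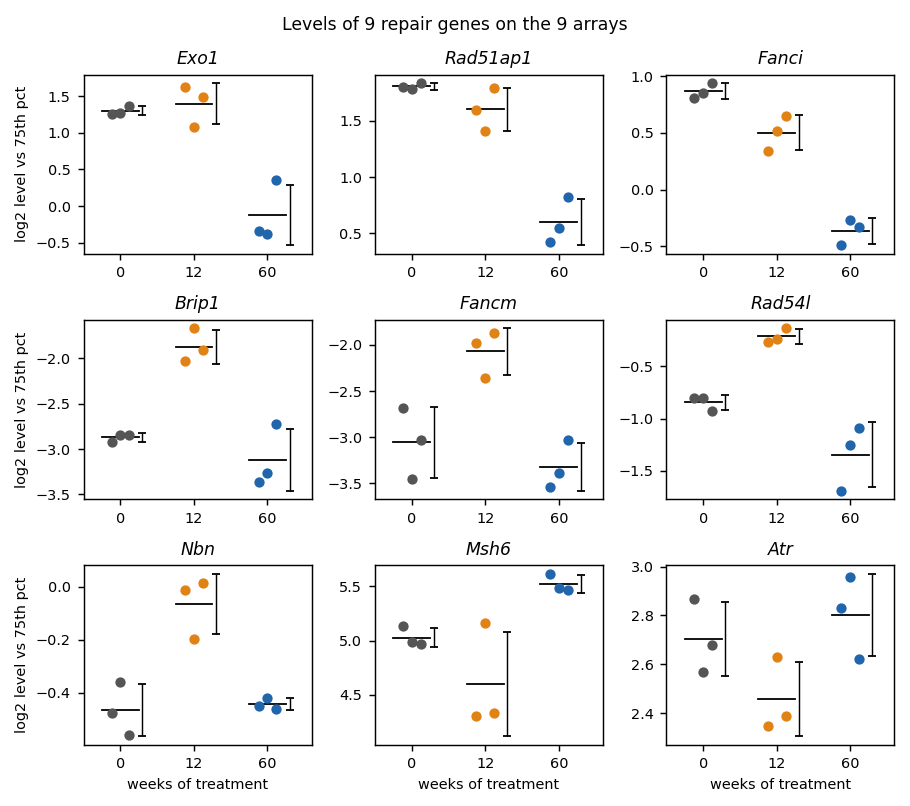
Points are the log2 levels (vertical axis, relative to the array's 75th percentile) of 9 repair genes on the 3 arrays each of 0, 12 and 60 weeks (horizontal axis); lines are group means and bars ± SD. Exo1, Rad51ap1 and Fanci are lowest at 60 weeks, Brip1, Fancm, Rad54l and Nbn highest at 12 weeks, Msh6 is highest at 60 weeks, and the groups of Atr overlap.

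In break sensing and end resection, 3 of 6 members were called lower at 60 against 0 weeks (median -0.46 over the 6), namely Exo1, Blm and Rbbp8. Mre11a, Rad50 and Nbn, whose complex first binds the break, were not called there, though Mre11a and Rad50 also lay lower. Exo1, an exonuclease that digests the 5′ strand in resection and also removes mismatched strands, stood at 1.26, 1.27 and 1.37 at 0 weeks, 1.63, 1.08 and 1.49 at 12 weeks, then -0.34, -0.38 and 0.35 at 60 weeks. Even its highest 60 weeks array lay below every earlier one. It fell 2.69-fold from 0 weeks (log2 -1.43 ± 0.22, adjusted p = 0.00157) and 2.88-fold from 12 weeks (log2 -1.53 ± 0.22, adjusted p = 0.00128), and both calls held in every alternative run. Blm, a helicase that unwinds ends and dissolves joint molecules, was at 0.65, 0.57 and 0.40, then 0.13, 0.39 and 0.16, then -0.25, -0.17 and 0.05. Each group lay below the one before without overlap. From 0 to 60 weeks Blm fell by 0.66 ± 0.12 (adjusted p = 0.00459), and without replicate 2 of 12 weeks it was also called at 12 weeks (log2 -0.39, adjusted p = 0.0285). Rbbp8, the factor that starts resection with the Mre11a nuclease, ranged from 3.50 to 3.69 at 0 weeks, 2.74 to 3.43 at 12 weeks and 2.87 to 3.06 at 60 weeks. It fell by 0.63 ± 0.17 from 0 to 60 weeks (adjusted p = 0.0225), which no longer held without replicates 2 or 3 of 0 weeks or replicates 1 or 3 of 60 weeks. Without replicate 2 of 12 weeks it was also called lower at 60 than at 12 weeks (log2 -0.35, adjusted p = 0.0309).

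Of the break-sensing complex, Mre11a, the nuclease, stood at 2.72, 2.83 and 2.91, then 2.53, 2.91 and 2.56, then 2.51, 2.42 and 2.66. Its 60 weeks arrays lay below those of 0 weeks, but the difference of -0.29 ± 0.13 was not called (adjusted p = 0.119). Rad50, which tethers the ends, differed by a like amount, -0.30 ± 0.14 (adjusted p = 0.144), from 2.21 to 2.33 at 0 weeks and 1.88 to 2.08 at 60 weeks. Without replicate 2 of 12 weeks both passed (adjusted p = 0.0377 for Mre11a and 0.0288 for Rad50), and Rad50 was also called lower at 12 than at 0 weeks (log2 -0.43, adjusted p = 0.00854). Nbn, the adaptor that recruits Atm, was at -0.48, -0.36 and -0.56 at 0 weeks, -0.01, -0.20 and 0.01 at 12 weeks, then -0.45, -0.42 and -0.46 at 60 weeks. The 12 weeks arrays stood above the others, which overlapped. Nbn rose 1.32-fold at 12 weeks (log2 0.40 ± 0.10, adjusted p = 0.0113) and was lower by 0.38 ± 0.10 at 60 than at 12 weeks (adjusted p = 0.0163), the latter not held without replicates 1 or 3 of 12 weeks or replicate 1 of 60 weeks.

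In the Fanconi core complex, which places ubiquitin on Fanci and Fancd2, 3 of 5 members were called lower at 60 against 0 weeks, with a median of -0.48. Fanca, a scaffold of the core, stood at 1.69, 1.61 and 1.84 at 0 weeks, 1.92, 1.76 and 1.81 at 12 weeks, then 0.53, 0.55 and 0.91 at 60 weeks. The first groups overlapped and all 60 weeks arrays lay below them. It fell 2.07-fold from 0 weeks (log2 -1.05 ± 0.13, adjusted p = 0.000498) and 2.25-fold from 12 weeks (log2 -1.17 ± 0.13, adjusted p = 0.000355). Fancl, the ubiquitin ligase of the core, was at 2.59, 2.56 and 2.81, then 2.20, 1.997 and 2.24, then 1.69, 1.44 and 2.05. Both later groups lay below 0 weeks and overlapped each other. Fancl fell 1.9-fold by 60 weeks (log2 -0.93 ± 0.16, adjusted p = 0.0033). Its call at 12 weeks (-0.51 ± 0.16, adjusted p = 0.0362) ended in 13 of 23 alternatives, those without any 1 array of 0 or 12 weeks or replicate 1 of 60 weeks among them. From 12 to 60 weeks it was not called (-0.42 ± 0.16, adjusted p = 0.0729), but was in 7 of 23 alternatives. A second, fainter Fancl probe differed by -0.18 at 12 against 0 weeks and by -1.04 at 60 against 12 weeks.

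Fancc, a further core subunit, was lowest at 12 weeks, with 0.59, 0.60 and 0.64 at 0 weeks, -0.02, -0.12 and -0.10 at 12 weeks, then 0.45, 0.21 and 0.07 at 60 weeks. The 3 groups did not overlap, and 60 weeks lay between the others. It fell 1.62-fold by 12 weeks (log2 -0.69 ± 0.11, adjusted p = 0.00163), while 60 against 0 weeks (-0.37 ± 0.11, adjusted p = 0.0324) and 60 against 12 weeks (0.32 ± 0.11, adjusted p = 0.0461) were called narrowly. The call at 12 weeks ended with the mean of its probes (log2 -0.46, adjusted p = 0.0638) and with the value table (log2 -0.22, adjusted p = 0.582). Its second, fainter probe differed by -0.22 between 12 and 0 weeks, and by 0.08 between 60 and 0 weeks, the latter of opposite sign. The call of 60 against 0 weeks ended without any 1 of the 0 weeks arrays or replicates 2 or 3 of 60 weeks. The call of 60 against 12 weeks ended without any 1 array of 0 or 12 weeks and without replicates 1 or 2 of 60 weeks. Fancg ranged from -2.46 to -2.21 at 0 weeks, -2.75 to -2.25 at 12 weeks and -3.09 to -2.53 at 60 weeks, with no call (-0.48 ± 0.18 at 60 against 0 weeks, adjusted p = 0.0702). In 3 of 22 alternatives Fancg was called lower at 60 against 0 weeks, that without replicate 1 of 60 weeks among them.

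Fancm, the DNA translocase that anchors the core complex to stalled forks, was also highest at 12 weeks. It stood at -2.69, -3.45 and -3.03 at 0 weeks, -1.98, -2.36 and -1.87 at 12 weeks, then -3.55, -3.39 and -3.03 at 60 weeks. All 12 weeks arrays lay above the other 6, and 0 and 60 weeks overlapped. Fancm rose 1.98-fold at 12 weeks (log2 0.99 ± 0.23, adjusted p = 0.00897) and was 2.38-fold lower at 60 than at 12 weeks (log2 -1.25 ± 0.23, adjusted p = 0.00375). The ID2 complex is the substrate of the core and clamps onto DNA once it carries ubiquitin. Fanci, 1 of its 2 subunits, was at 0.80, 0.85 and 0.94, then 0.34, 0.52 and 0.65, then -0.49, -0.27 and -0.33. Its groups descended without overlap. From 0 to 60 weeks Fanci fell 2.35-fold (log2 -1.23 ± 0.11, adjusted p = 9.76e-05), and by 0.36 ± 0.11 from 0 to 12 weeks (adjusted p = 0.0297), the latter not held without any 1 of the 0 weeks arrays or replicate 1 of 12 weeks. Fancd2, its partner, stood at -2.26, -2.23 and -2.60, then -2.59, -2.01 and -2.05, then -2.76, -2.89 and -3.40. The 60 weeks arrays lay below all others, with a difference of -0.65 ± 0.22 from 0 weeks that missed the threshold (adjusted p = 0.0513; 0.0442 without replicate 2 of 12 weeks). From 12 to 60 weeks Fancd2 fell by 0.80 ± 0.22 (adjusted p = 0.0217), which no longer held without replicate 3 of 12 weeks or replicate 3 of 60 weeks.

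Of the checkpoint kinases, 1 of 4 was called lower at 60 against 0 weeks and none was called in the other comparisons. Chek1, which stops the cycle when forks stall, ranged from -3.88 to -3.63 at 0 weeks, -4.35 to -3.85 at 12 weeks and -4.64 to -4.09 at 60 weeks, where it was above background on 2 of 3 arrays. Its call (-0.56 ± 0.18, adjusted p = 0.0425) ended in 12 of 21 alternatives, with normexp background correction at -0.07 (adjusted p = 0.663) and without any 1 of the 0 weeks arrays or replicates 2 or 3 of 60 weeks. Atm, the kinase of double-strand breaks, stood at 0.26, -0.19 and -0.29, then -0.02, -0.02 and -0.16, then -0.75, -0.88 and -0.22. Replicate 3 of 60 weeks fell among the 0 weeks arrays, and without it Atm was called at 60 against 0 weeks. With it the difference was -0.55 ± 0.20 (adjusted p = 0.0684). Atr, the kinase of stalled forks, overlapped between 0 weeks (2.87, 2.57 and 2.68) and 60 weeks (2.83, 2.96 and 2.62), a difference of 0.10 ± 0.13 (adjusted p = 0.61). Chek2, the effector of Atm, spread from -0.65 to 0.14 at 12 weeks, around its 0 weeks values of -0.14, -0.02 and -0.08, and was not called at 12 or 60 weeks (adjusted p = 0.418 and 0.461). Leaving out replicate 2 of 12 weeks, Chek2 was called lower at 12 than at 0 weeks (log2 -0.42, adjusted p = 0.0315) and Atr higher at 60 than at 12 weeks (log2 0.43, adjusted p = 0.0273).

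The 2 mismatch repair members differed: at 60 against 0 weeks Pms2 was called lower, and Msh6 lay above with no call. Pms2, the endonuclease subunit that nicks the strand to be removed, stood at 0.06, -0.10 and -0.08, then -0.21, -0.43 and -0.38, then -0.68, -0.47 and -0.32. All later arrays lay below 0 weeks. It fell by 0.45 ± 0.12 from 0 to 60 weeks (adjusted p = 0.0216), which no longer held without any 1 of the 0 weeks arrays or replicates 1 or 2 of 60 weeks. Msh6, the subunit that recognises base mismatches, was at 5.13, 4.99 and 4.97 at 0 weeks, 4.31, 5.16 and 4.34 at 12 weeks, then 5.62, 5.48 and 5.46 at 60 weeks. At 12 weeks replicates 1 and 3 lay below 0 weeks and replicate 2 above all 0 weeks arrays. Msh6 was 1.89-fold higher at 60 than at 12 weeks (log2 0.92 ± 0.21, adjusted p = 0.011), while 60 against 0 weeks was not called (0.49 ± 0.21, adjusted p = 0.111). Without replicate 2 of 12 weeks, Msh6 was called lower at 12 weeks (log2 -0.70, adjusted p = 0.000653) and higher at 60 weeks (log2 0.49, adjusted p = 0.00281) than at 0 weeks.

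**Figure D3:**
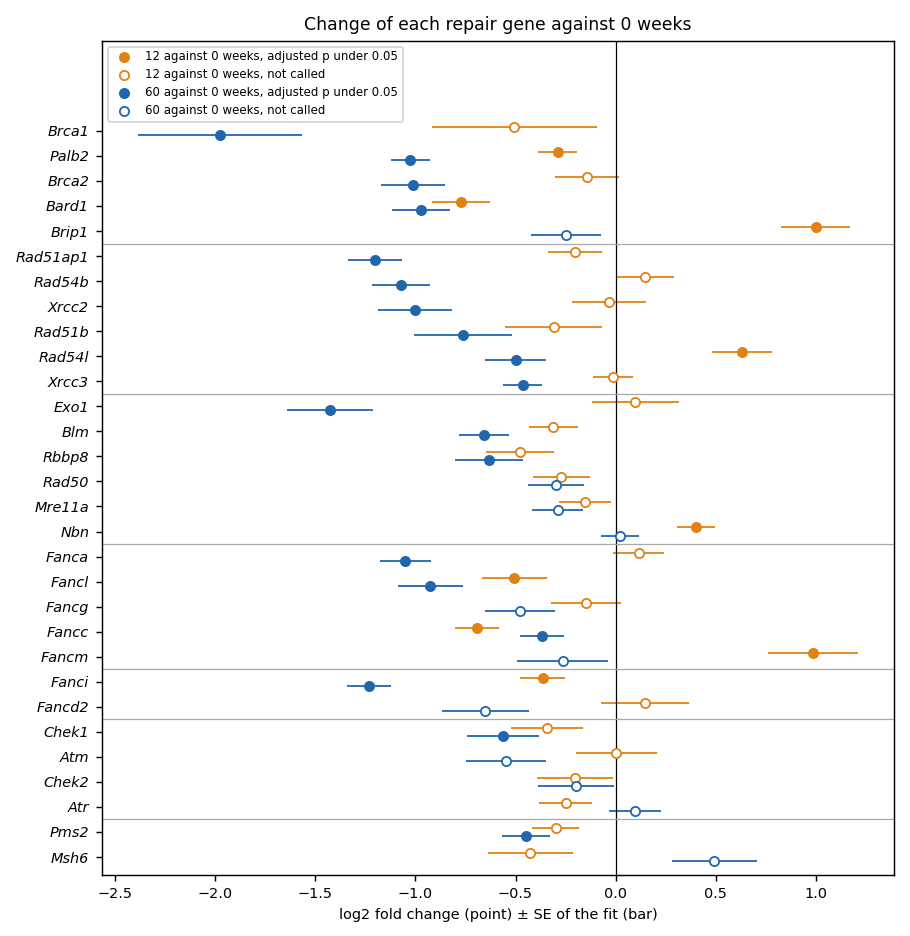
Points are log2 fold changes of the 30 repair genes (vertical axis, in the order and roles of the map of arrays) at 12 weeks (orange) and 60 weeks (blue) against 0 weeks, bars are ± SE of the fit, and filled points have an adjusted p under 0.05. The 19 filled blue points all lie below 0, and of the 9 filled orange points 4 lie above and 5 below; the 60 weeks point of Brca1 comes from signals that were not well above background.

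Other genes of these pathways were listed by function and read in the same fit, where 16.1% of all tested genes were called lower and 16.7% higher at 60 against 0 weeks. Of 33 other recombination genes, 12 were called lower and 2 higher at 60 against 0 weeks (median -0.27). Fignl1, an ATPase of recombination, fell by 1.53 ± 0.15 (adjusted p = 0.000156), and Recql, a helicase, fell by 1.39 ± 0.13 (adjusted p = 0.000112). Rpa1, a subunit of the protein that coats single-stranded DNA, fell by 0.95 ± 0.11 (adjusted p = 0.000393). Of 14 other Fanconi genes, 6 were called lower and 1 higher (median -0.36). Fancb, a core subunit, fell by 1.45 ± 0.15 (adjusted p = 0.000193), and Ube2t, the ubiquitin-conjugating enzyme that works with Fancl, fell by 1.20 ± 0.18 (adjusted p = 0.00135). Of 10 other mismatch repair genes, 6 were called lower and 1 higher (median -0.54), led by Lig1, the ligase that seals the repaired strand, which fell by 1.27 ± 0.11 (adjusted p = 6.71e-05). Pold1 and Pold2 of this list fell by 0.91 ± 0.18 (adjusted p = 0.00579) and 0.75 ± 0.15 (adjusted p = 0.00586). The part of DNA replication in these falls was not tested. Of 18 other checkpoint genes, 9 were called lower and 1 higher (median -0.44). Among them, Tipin, which protects stalled forks, fell by 1.38 ± 0.13 (adjusted p = 0.000147), and Topbp1, the activator of Atr, fell by 1.03 ± 0.12 (adjusted p = 0.000405). At 12 against 0 weeks these 4 lists had 8, 2, 5 and 4 genes called lower and 2, 1, 1 and 1 higher, beside 22.7% and 19.1% of all tested genes. At 60 against 12 weeks they had 12, 5, 1 and 5 lower and 4, 1, 1 and 1 higher, beside 17.6% and 20.7%. Dmc1, Uimc1 and Fan1 were listed but too dim to be tested.

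Repair pathways outside recombination were counted in the same way, beside the same shares of all tested genes. At 60 against 0 weeks, 1 of 14 end joining genes was called lower and 2 higher (median 0.05), 3 of 19 base excision repair genes lower and 2 higher (median -0.15), and 1 of 19 nucleotide excision repair genes lower and 1 higher (median -0.01). Translesion synthesis, which copies past damaged bases, differed with time: 6 of 10 genes were called lower and 0 higher at 12 weeks (median -0.40), and 5 higher and 0 lower from 12 to 60 weeks (median 0.38). At 60 against 0 weeks 3 of these genes were called lower and 2 higher (median -0.0078). Polh, a translesion polymerase, was lower than at 0 weeks at both times, by 0.77 ± 0.15 at 12 weeks (adjusted p = 0.00431) and 0.65 ± 0.15 at 60 weeks (adjusted p = 0.0114). Rev3l, the catalytic subunit of another, rose by 0.54 ± 0.12 at 60 weeks (adjusted p = 0.00827). It lies on chromosome 10, whose genes had a median difference of 0.28 at 60 against 0 weeks, and the part of the chromosome in the rise was not tested.

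DNA replication shares its S phase timing with recombination. Of 34 replication genes, 29 were called lower and 0 higher at 60 against 0 weeks, with a median of -0.999, and 17 lower and 1 higher at 12 weeks, with a median of -0.32. Of the repair genes, 9 had fitted differences below the replication median at 60 weeks, namely Brca1, Exo1, Fanci, Rad51ap1, Rad54b, Fanca, Palb2, Brca2 and Xrcc2. For Brca1 the fitted value rests on signals not well above background at 60 weeks. With the floor used for its dim arrays, the fall of Brca1 was 1.96-fold, which does not place it below that median. Cdc45, a part of the replicative helicase, fell by 1.34 ± 0.11 (adjusted p = 5.48e-05). E2f1, a transcription factor of S phase genes, fell by 1.65 ± 0.12 at 60 weeks (adjusted p = 3.75e-05), and 7 of 17 genes of the E2F and Rb families were called lower and 0 higher (median -0.37). Of 20 mitotic genes, 3 were called lower and 0 higher (median -0.27), beside 16.1% and 16.7% of all tested genes. Mki67, a marker of cycling cells, differed by -0.31 ± 0.17 at 60 weeks (adjusted p = 0.204). The part of replication and cycling in the repair genes' levels was not tested. Of 16 genes listed as p53 targets, 6 were called higher and 0 lower at 60 weeks (median 0.19). That list leaves out Ddb2, a p53 target in human cells counted here with nucleotide excision repair, which was called lower (-0.44 ± 0.11, adjusted p = 0.0162). Mdm2, which degrades p53, rose by 0.90 ± 0.12 (adjusted p = 0.000732) and lies on chromosome 10 too, while Cdkn1a, the cell cycle inhibitor that p53 induces, differed by -0.09 ± 0.16 (adjusted p = 0.696). Sesn2 and Trp53inp1, other targets called higher, lie on chromosome 4, whose genes had a median difference of 0.21 at 60 against 0 weeks. The part of the chromosomes in these rises was not tested. At 12 weeks, Cdkn2a, which encodes an inhibitor of cyclin-dependent kinases, was above background on all 3 arrays, and on 0 of 3 at 0 and at 60 weeks. Trp53, which encodes p53, rose by 0.35 ± 0.12 at 12 weeks (adjusted p = 0.0466) and differed by 0.07 ± 0.12 at 60 weeks (adjusted p = 0.707). Epcam, an epithelial surface protein, differed by -0.06 ± 0.12 at 60 weeks (adjusted p = 0.71). These lists were chosen by function with earlier results of these data known.

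**Figure D4:**
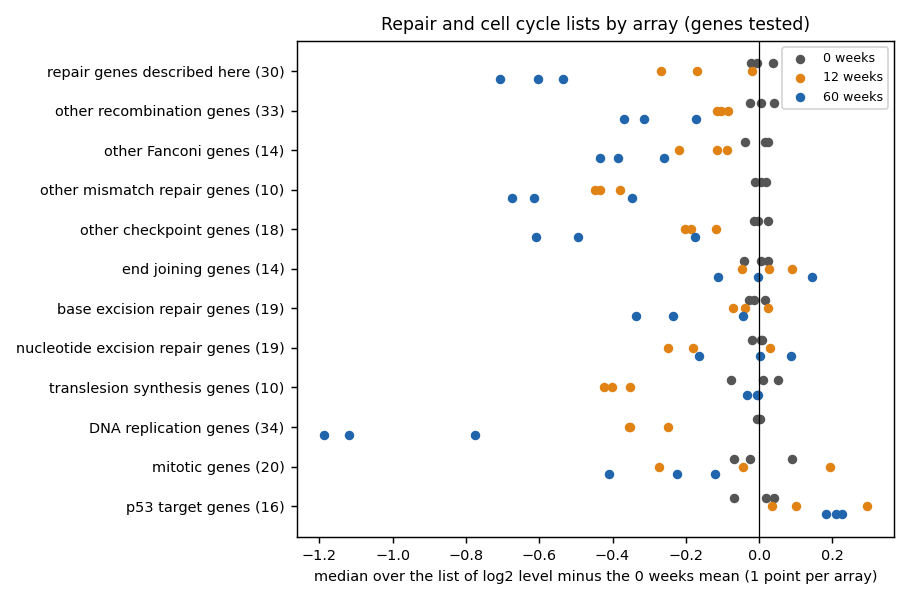
Each point is 1 array: the median over a list of genes (vertical axis, number of tested genes in brackets) of the log2 level minus the gene's 0 weeks mean (horizontal axis), in grey for 0, orange for 12 and blue for 60 weeks. The 60 weeks arrays lie at -0.71, -0.53 and -0.60 for the repair genes and at -1.19, -1.12 and -0.78 for the replication genes, and around 0 for end joining and translesion synthesis.

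Some calls changed with chromosome or with position on the slide. Genes of chromosomes 4, 5 and 12 had median differences of 0.26, 0.17 and 0.23 at 12 against 0 weeks, above the -0.06 of all genes. On these chromosomes lie 11 of the 30 members, of which 3 were called higher and 0 lower at 12 weeks, against 1 higher and 5 lower of the 19 on the others. At 60 weeks 7 of the 11 and 12 of the 19 were called lower. Chromosomes 4, 5 and 12 then had median differences of 0.21, 0.11 and 0.22 against 0 weeks. With each chromosome's median deviation subtracted, Rad54l and Nbn, both on chromosome 4, were no longer called at 12 weeks (log2 0.38 with adjusted p = 0.0661, and 0.15 with adjusted p = 0.256). Brip1 on chromosome 11 (1.13, adjusted p = 0.00107) and Fancm on chromosome 12 (0.76, adjusted p = 0.0276) were still called. The falls of Palb2, Fanci and Fancl at 12 weeks also ended, and Pms2 was gained. At 60 against 0 weeks the same subtraction ended the calls of Fancc, Rbbp8 and Chek1 and gained Fancg. With slide row as a block, 11 members were called lower at 60 against 0 weeks, the calls of Rad51b, Rad54l, Xrcc3, Fancc, Fancl, Blm, Rbbp8, Chek1 and Pms2 ending and that of Fancd2 appearing; no row of a slide held both of these groups. At 12 against 0 weeks the row block left 6 members called: the rises of Rad54l (log2 0.58, adjusted p = 0.0613) and Nbn (log2 0.45, adjusted p = 0.0586) and the falls of Palb2 and Fancl ended, and Chek1 was gained. A fit within row 1, with 1 array of 12 weeks assumed to vary like the 0 weeks arrays, called 14. At 60 against 12 weeks the row block gave 18, but the calls of Msh6 (log2 0.80, adjusted p = 0.0684) and Nbn (log2 -0.34, adjusted p = 0.0965) ended, as they did within row 2 (adjusted p = 0.202 and 0.252). The fit within row 2, with 2 arrays a group, called 5 members and 703 of all genes, in place of 17 and 5378. A block for the slide leaves out replicate 3 of 60 weeks in effect, and gave 17 members at 60 against 0 weeks. The calls of Bard1, Brca2, Exo1, Fanca, Fanci, Palb2, Rad51ap1 and Xrcc2 at 60 against 0 weeks held in every alternative that gave them a value, with none from the value table for Brca2 and Exo1.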

How the data were processed

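Total RNA from 9 colon organoid samples was labelled with Cy3 and hybridised to single-colour Agilent arrays of 55681 non-control probes. Per the file headers, the authors quantified the scans with Agilent Feature Extraction 10.7.3.1, on an array design that refers to build mm9:NCBI37:Jul2007, and the deposited scanner files hold an intensity per spot, background-subtracted, linear and not scaled between arrays. The deposited quality calls of each spot (outlier, saturated, well above background) were used as given. The authors' value table gives a linear signal for 42530 probes, which matched the intensities divided by 1 constant per array close to its 75th percentile; its source and any centring are not given in the sources used here. Column medians of the table were 0.0668, 0.0719 and 0.0705 for the 0 weeks replicates, 0.0619, 0.0681 and 0.0733 for those of 12 weeks, and 0.0673, 0.0695 and 0.0582 for those of 60 weeks. Columns without a sample numbered 0.

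Outlier spots (117 to 163 of 59305 per array) were left out, replicate spots were averaged per probe, and each array's 75th percentile was subtracted on the log2 scale. No spot was saturated (0 on each array). The filter kept probes that 2 or more of the 3 arrays in some group called well above background (49.2% to 52.7% of probes per array), and named through RefSeq accessions of GRCm38.p6 (27235 probes), since the scanner files hold accessions and no symbols. The brightest kept probe stood for a gene; among 9 members with several kept probes, signs differed for Xrcc2 at 12 against 0 weeks, Fancc at 60 against 0 weeks, and Pms2 and Rad50 at 60 against 12 weeks. The 9 arrays entered 1 fit of the 3 group means in limma 3.58.1 (R 4.3.3, lmFit and eBayes, two-sided tests), which was tested on simulated data. Members, lists and roles were chosen with earlier results of these data known. Some genes of the other lists and of the markers are not reported here and were left out of the counts. Named genes are the members, up to 3 genes per other list with the lowest adjusted p at 60 against 0 weeks, and a panel (Mki67, Trp53, Cdkn1a, Cdkn2a, E2f1, Epcam). Precision is limited by 3 arrays per group. Alternatives were background correction (normexp, offset 50, on the median signal, because the planned mean signal was not among the columns), scaling, filter, probe, the value table, blocks for replicate, slide and slide row, array weights, chromosome medians and leaving out each array.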

Additional observations from a re-analysis of the deposited data

How the results depend on the processing

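Members called at 12 against 0 weeks numbered 9, with 14 within slide row 1, 15 with array weights and 5 with chromosome medians subtracted. At 60 against 0 weeks the 19 calls became 11 with the slide row as a block, and at 60 against 12 weeks the 17 became 5 within slide row 2. Leaving out 1 array at a time gave 6 to 12, 13 to 23 and 13 to 20 members in the 3 comparisons, and 18 to 26 members by the F test. All-gene counts moved by over 1.5 times with the slide row block (1392 in place of 4600 at 60 against 0 weeks, 3470 in place of 5378 at 60 against 12 weeks), within slide row 2 (703) and with array weights (7602 at 60 against 0 weeks). Fancc at 60 against 0 weeks changed sign with the value table (0.0765, adjusted p = 0.867), which lacks its brightest probe. For Rad54b at 60 against 0 weeks, Fancc at 12 against 0 weeks and Pms2 at 60 against 12 weeks, the value table gave -0.67, -0.22 and 0.014. Their second, fainter probes differed by -0.67, -0.22 and 0.016 in the scanner files. The causes of the other changes were not tested.

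Same-numbered arrays of different groups deviated together at correlations of -0.08 to 0.20, and differently numbered arrays at -0.24 to 0.16. With 3 arrays per group these values cannot decide whether replicate numbers pair the samples. The labels do not say so, and no pairing entered the main fit. The replicate block gave 8, 17 and 17 members and 20 by the F test. Over single members, 600 of 683 alternative values at 12 against 0 weeks, 567 of 653 at 60 against 0 weeks and 596 of 683 at 60 against 12 weeks kept their direction and their side of the threshold, while 17, 4 and 16 changed sign, none of them called under that alternative. Depth limits Brca1 and Chek1, whose probes lay near background.

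The changes of sign, Fancc apart, were in members with no call, whose differences lay between -0.22 and 0.15. At 12 against 0 weeks, Xrcc3 became 0.0089 with normexp and 0.029 with the percentile over probes above background on all arrays (-0.044 to 0.017 leaving out 1 array). Xrcc2 became 0.0082 with that percentile and 0.071 with the mean of its probes (-0.17 to 0.072 leaving out 1 array), and Exo1 ranged from -0.015 to 0.26 on leaving out 1 array. Rad54b became -0.078 and Fancd2 -0.23 both with the slide row block and within row 1, Rad54b -0.10 with chromosome medians subtracted, and Atm -0.010 with array weights (-0.11 to 0.17 leaving out 1 array). At 60 against 0 weeks Nbn became -0.0043 with array weights and -0.19 with chromosome medians subtracted (-0.023 to 0.075 leaving out 1 array). At 60 against 12 weeks Chek1 became 0.15 with normexp and Pms2 0.014 with the value table. Rad50 became 0.091 with the mean of its probes, 0.017 with the slide block and 0.061 with array weights (-0.13 to 0.13 leaving out 1 array). Chek2 became -0.032 with normexp, -0.049 with the percentile over probes above background, -0.059 with the slide block, and -0.24 with the slide row block and within row 2 (-0.18 to 0.22 leaving out 1 array).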

Other observations

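Neil2 and Tdg were the 2 of 19 base excision repair genes called higher at 60 against 0 weeks. Neil2, a glycosylase that opens base excision repair of oxidised bases, was above background on 0 of 3 arrays at 0 weeks and on 3 of 3 at both later times. With the 0 weeks arrays set at the floor described for Brca1, Neil2 was 3.61-fold higher at 12 weeks and 3.71-fold higher at 60 weeks. In the limma fit, made without the floor, the adjusted p was 7.14e-06 and 7.67e-06. Tdg, which removes thymine from mismatches with guanine, rose by 0.82 ± 0.15 at 60 weeks (adjusted p = 0.00368) and was not called at 12 weeks (0.19 ± 0.15, adjusted p = 0.337). Tdg lies on chromosome 10, whose genes had a median difference of 0.28 at 60 against 0 weeks, and its part in the rise was not tested. Mbd4, a glycosylase of the same kind of mismatch, fell by 0.64 ± 0.11 at 60 weeks (adjusted p = 0.00288). Xrcc4, a scaffold of end joining, fell by 0.69 ± 0.12 at 12 weeks (adjusted p = 0.00239) and differed by -0.01 ± 0.12 from 12 to 60 weeks (adjusted p = 0.96). Ddb2, which finds ultraviolet damage for nucleotide excision repair and is a p53 target in human cells, fell by 0.72 ± 0.11 at 12 weeks (adjusted p = 0.00132) and was lower than at 0 weeks at 60 weeks too (-0.44 ± 0.11, adjusted p = 0.0162).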
